A study of Drosophila melanogaster with 4 samples.

Results

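The gene *bam* (bag of marbles) and its partners *bgcn*, *tut* and *mei-P26* were followed in ovaries of *Drosophila melanogaster* in which either *Nipped-A* or *bam* was targeted by RNA interference in germ cells. The 4 genes were taken by their FlyBase symbols, and all 4 were found among the 17023 genes listed and all 4 passed the filter on low counts, as did 10245 genes in all. One genotype was UAS-Dcr2;nosGAL4>Nipped_A RNAi and the other UAS-Dcr2;nosGAL4>bam RNAi, with 2 libraries each. Both groups carried the germ cell driver nosGAL4 and the RNAi enhancer UAS-Dcr2, so somatic cells of the ovary were not the intended target in either. Ovaries came from flies 2 to 3 days after eclosion, and poly(A) RNA was sequenced. There was no group without a hairpin, so each level is read against the other knockdown and not against wild type. Whether the 2 libraries of a group came from separate flies is not stated in the labels, so the p-values reflect only how these samples vary, which may be technical.

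Bam is the switch by which the daughter of a germline stem cell becomes a cystoblast and enters the divisions that form a cyst. In the stem cell its gene is silenced by BMP signals from the niche. Once made, Bam works in the cytoplasm with Bgcn, a protein related to DExH-box RNA helicases, and with the TRIM-NHL protein Mei-P26, and this complex represses the translation of stem cell factors such as Nanos. Tut is an RNA-binding protein known from the fly testis, where it acts with Bam and Bgcn on the *mei-P26* transcript. Without Bam, germ cells keep dividing in a stem-cell-like state.

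The libraries held 47825006 and 21193517 counts for *Nipped-A* RNAi-labelled libraries 1 and 2, and 33844807 and 23866988 for *bam* RNAi-labelled libraries 1 and 2. Levels are given as CPM, the usual count per library size, here with TMM factors. Fold changes are values of *Nipped-A* RNAi-labelled libraries over *bam* RNAi-labelled ones, and a gene is called when its Benjamini-Hochberg adjusted p is below 0.05 in edgeR's quasi-likelihood test over all genes tested. *Nipped-A* itself, the shared scaffold of the Tip60 and SAGA complexes, had 430 and 439 CPM in *Nipped-A* RNAi-labelled libraries, against 287 and 247 CPM in *bam* RNAi-labelled ones. That goes against its label (log2 fold change 0.70 ± 0.14 SE, edgeR adjusted p = 0.0287). Once the trend with gene length was removed the log2 fold change was 0.28 (edgeR adjusted p = 0.155). With length taken from the shortest transcript it was 0.11 (edgeR adjusted p = 0.488), and under upper-quartile scaling 0.49 (edgeR adjusted p = 0.0524). A mix-up of labels and a hairpin that does not lower the counted transcript cannot be told apart from that gene alone. *bam* was lower in *bam* RNAi-labelled libraries, the direction their label gives. Without an untargeted group that value does not test the labels. The groups below are therefore named by the labels of their libraries, and no direction refers to a reduced *Nipped-A* transcript. Of all genes tested 19.6% were called, 11.3% higher and 8.31% lower. Under upper-quartile scaling, which moved the median log2 fold change to −0.21, 853 genes were higher and 1556 lower, against 1153 higher and 851 lower with TMM; scaling to germ cell markers, which moved it to −0.12, gave 990 higher and 1168 lower.

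Of the 4 genes 3 were called. *bam* rose 4.10-fold and *mei-P26* rose 1.88-fold in *Nipped-A* RNAi-labelled libraries, while *bgcn* fell there and was 6.31-fold lower. *tut* was not called, at a log2 fold change of 0.70 ± 0.29 (SE, n = 2 per group). Both libraries of one group lay beyond both of the other for all 4 genes, which was also the case for 68.9% of all genes tested. The 4 genes were chosen with earlier results of these data known, so the share of them called is a description.

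**Figure D1:**
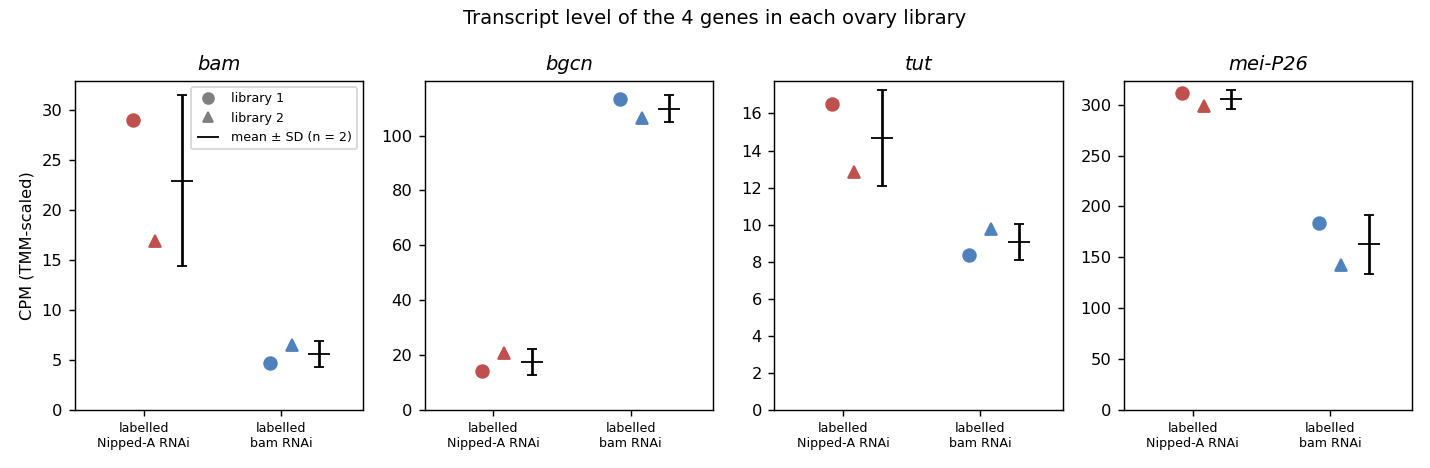
Levels of *bam*, *bgcn*, *tut* and *mei-P26* in CPM (vertical axes, linear from 0) in each library, with *Nipped-A* RNAi-labelled libraries in red on the left and *bam* RNAi-labelled libraries in blue on the right. Circles are library 1, triangles library 2 and the bars mean ± SD (n = 2); the *bgcn* points run opposite to those of the other 3 genes.

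*bam* (FBgn0000158) lies on the minus strand of chromosome 3R at dm6 chr3R:25243039-25245109 and has 1 annotated transcript of 3 exons, with 1326 coding bases and a 3′ UTR of 484 bases. It had 1426 and 360 counts in *Nipped-A* RNAi-labelled libraries 1 and 2, against 156 and 153 in *bam* RNAi-labelled libraries 1 and 2. Scaled, these were 29.0 and 16.9 CPM in *Nipped-A* RNAi-labelled libraries, against 4.70 and 6.52 CPM in *bam* RNAi-labelled ones. Both *Nipped-A* RNAi-labelled libraries thus lay well above both *bam* RNAi-labelled ones. The means were 22.9 ± 8.60 and 5.61 ± 1.29 CPM (SD, n = 2 each), and the log2 fold change was 2.03 ± 0.38 (SE; edgeR adjusted p = 0.0254), with a 95% interval of 1.08 to 2.99. *bam* is the target of the other hairpin, so this difference includes any effect of that hairpin. Without an untargeted group the share of the difference due to either knockdown cannot be told apart. The transcript was not absent from *bam* RNAi-labelled libraries: per exonic length it stood at percentile 24.0 and 26.8 of the genes tested there, against 47.7 and 34.9 in *Nipped-A* RNAi-labelled libraries.

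Libraries of the same group differed in *bam* beyond counting error, and *bam* was not alone in this. Over genes with at least 10 counts in a pair, the mean chi-square per gene was 226 for *Nipped-A* RNAi-labelled libraries. It was 21.4 for *bam* RNAi-labelled ones, where counting error alone would give about 1. In *Nipped-A* RNAi-labelled ones the exact 95% binomial intervals, in CPM of the unscaled library total, were 28.3 to 31.4 in library 1 and 15.3 to 18.8 in library 2, and they do not overlap. In *bam* RNAi-labelled ones they were 3.91 to 5.39 and 5.44 to 7.51, which do not overlap either. These intervals cover counting error only. Leaving out *Nipped-A* RNAi library 1 gave a log2 fold change of 1.58 and leaving out library 2 gave 2.44, both called. Without *bam* RNAi library 1 or 2 the fold changes of 1.83 and 2.29 were not called (edgeR adjusted p = 0.175 and 0.202); in those fits edgeR called 0 genes in the whole table, with 2373 and 1837 at an unadjusted p below 0.05. The 3′ UTR of *bam* shares 224 bases with the convergent gene *CG11854* on the other strand, and the counting's strand setting is not given in the sources used here. *CG11854* itself had 0 and 1 counts in *Nipped-A* RNAi-labelled libraries and 13 and 0 in *bam* RNAi-labelled ones.

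*bgcn* (FBgn0004581), which encodes the direct binding partner of Bam, lies on the minus strand of chromosome 2R at dm6 chr2R:23853270-23858921 and has 2 annotated transcripts. It had 697 and 442 counts in *Nipped-A* RNAi-labelled libraries, against 3760 and 2496 in *bam* RNAi-labelled ones. In CPM these were 14.2 and 20.7 in *Nipped-A* RNAi-labelled libraries, against 113 and 106 in *bam* RNAi-labelled ones. The 2 groups were far apart, and the spread within *bam* RNAi-labelled libraries was small: the means were 17.4 ± 4.61 and 110 ± 4.93 CPM (SD, n = 2 each). The log2 fold change was −2.66 ± 0.24 (SE; edgeR adjusted p = 0.00925), with a 95% interval of −3.26 to −2.06, and 1.89% of the genes tested had a fold change at or below it. Without *bam* RNAi library 1 or 2 it was −2.60 and −2.70 and not called (edgeR adjusted p = 0.106 and 0.132). The small gene *Pym* lies within the span of *bgcn* on the same strand and shares 0 exonic bases with it. *Pym* had 27.8 and 20.0 CPM in *Nipped-A* RNAi-labelled libraries and 16.1 and 16.2 CPM in *bam* RNAi-labelled ones, a difference that was not called (log2 fold change 0.57, edgeR adjusted p = 0.163), while *bgcn* around it fell.

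*mei-P26* (FBgn0026206) encodes a TRIM-NHL protein that Bam and Bgcn work with in the cystoblast and that limits growth in the cyst. It lies on the plus strand of chromosome X at dm6 chrX:9163255-9189309 and has 6 annotated transcripts, whose 3′ UTRs range from 481 to 18494 bases. The most abundant of the 4 by counts, it had 15307 and 6378 counts in *Nipped-A* RNAi-labelled libraries, against 6082 and 3333 in *bam* RNAi-labelled ones. In CPM these were 312 and 299 in *Nipped-A* RNAi-labelled libraries, against 183 and 142 in *bam* RNAi-labelled ones, so the first pair were close to each other and above both others. The means were 305 ± 9.0 and 163 ± 29.2 CPM (SD, n = 2 each), and the log2 fold change was 0.91 ± 0.17 (SE; edgeR adjusted p = 0.0248). Across all genes tested, the fold change increased with exonic length, from a median of −0.47 in the shortest decile of genes to 0.43 in the longest decile, to which *mei-P26* belongs. With that trend removed the log2 fold change was 0.43 ± 0.17 and not called (edgeR adjusted p = 0.145). With the length of the shortest transcript, 4966 bases, in place of all merged exons, 23228 bases, it was 0.56 ± 0.13 and still not called (edgeR adjusted p = 0.0545). Without *bam* RNAi library 1 or 2 it was 1.12 and 0.74 and not called (edgeR adjusted p = 0.138 and 0.253).

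*tut* (FBgn0052364) lies on the minus strand of chromosome 3L at dm6 chr3L:8209577-8210743 and has 1 transcript of 1046 bases, the shortest of the 4. It had 812 and 274 counts in *Nipped-A* RNAi-labelled libraries, against 278 and 229 in *bam* RNAi-labelled ones. In CPM these were 16.5 and 12.8 in *Nipped-A* RNAi-labelled libraries, against 8.38 and 9.76 in *bam* RNAi-labelled ones, so both groups held the transcript and they did not overlap. The means were 14.7 ± 2.61 and 9.07 ± 0.98 CPM (SD, n = 2 each), or 1.62-fold apart. The log2 fold change of 0.70 ± 0.29 was not called (SE; edgeR adjusted p = 0.142), and its 95% interval of −0.03 to 1.42 holds both no difference and one of the size seen for *mei-P26*. Genes of its length decile had a median of −0.30, and with the length trend removed the value was 1.02 ± 0.27 (edgeR adjusted p = 0.0667). It was called only without *Nipped-A* RNAi library 2, at 0.93 (edgeR adjusted p = 0.0182), and not under the other settings tried.

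**Figure D2:**
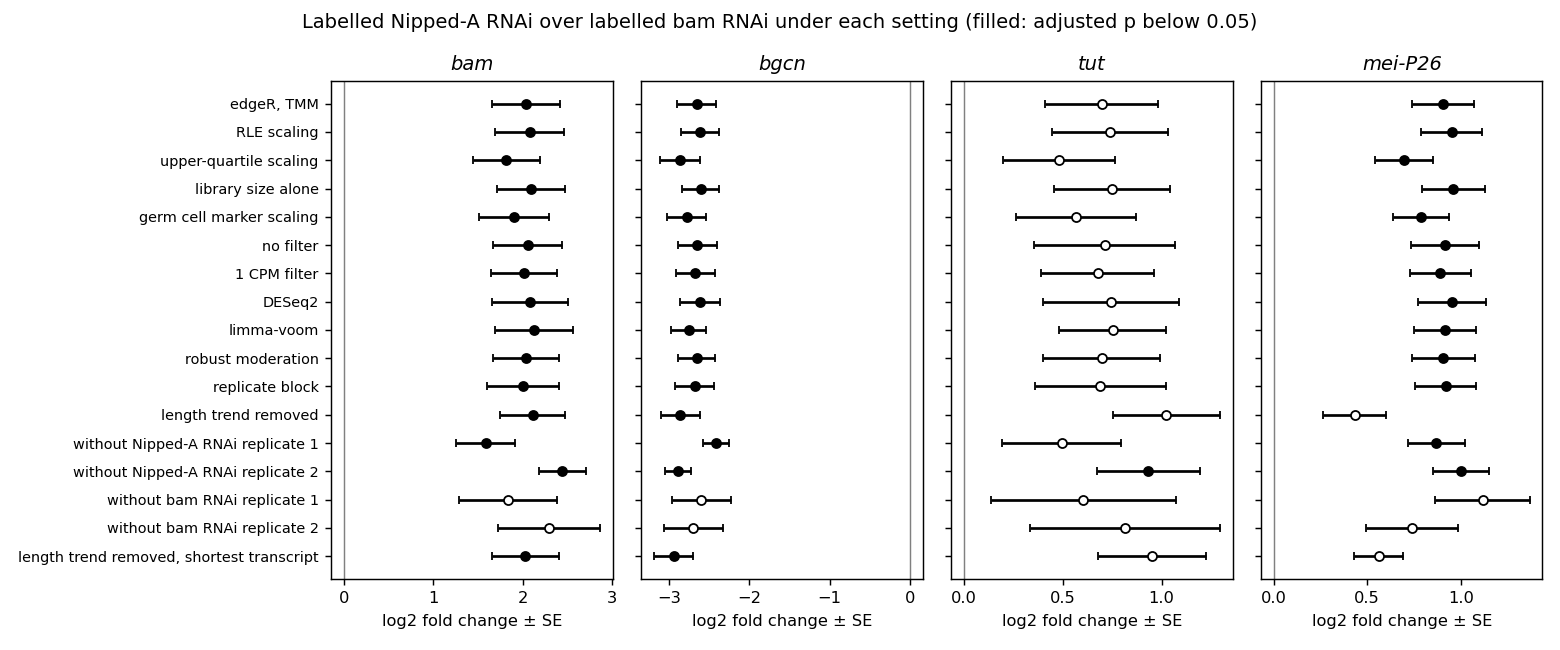
Log2 fold change ± SE (horizontal axes, with their own range in each panel) of *Nipped-A* RNAi-labelled libraries over *bam* RNAi-labelled ones, for each gene (panels) under each setting (lines down the page); filled points are called and the vertical line marks no difference. Every point of *bam*, *tut* and *mei-P26* lies above 0 and every point of *bgcn* below 0, while the calls of *bam*, *bgcn* and *mei-P26* end without either *bam* RNAi library and that of *mei-P26* also with the length trend removed.

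Divided by exonic length, so that genes can be set against each other, the order of the 4 differed between the groups. In *Nipped-A* RNAi-labelled libraries *bgcn* was the lowest, at 4.20 ± 1.11 CPM per kilobase (SD, n = 2), below *bam* at 11.8 ± 4.42, *mei-P26* at 13.1 ± 0.39 and *tut* at 14.0 ± 2.49. *bam*, *mei-P26* and *tut* did not differ there beyond their spread, and their order was not the same in libraries 1 and 2. In *bam* RNAi-labelled libraries *bgcn* was the highest, at 26.4 ± 1.18 CPM per kilobase, above *tut* at 8.67 ± 0.93 and *mei-P26* at 7.0 ± 1.26, which did not differ beyond their spread, and *bam* was the lowest at 2.88 ± 0.66. The place of *mei-P26* depends on its length, since its transcripts in these ovaries are not known. Per kilobase of its shortest transcript it stood at 61.5 ± 1.81 in *Nipped-A* RNAi-labelled libraries and 32.8 ± 5.88 in *bam* RNAi-labelled ones, above the other 3 genes in every library. The ratio of *bgcn* to *bam* differed between the groups. Per kilobase there were 0.229 and 0.575 *bgcn* for each *bam* in *Nipped-A* RNAi-labelled libraries 1 and 2, against 11.3 and 7.63 in *bam* RNAi-labelled libraries 1 and 2. A ratio within a library does not depend on its scaling, but this one includes the target of a hairpin. The ratio of *mei-P26* to *tut*, which are not targeted, was 0.849 and 1.05 in *Nipped-A* RNAi-labelled libraries, against 0.985 and 0.655 in *bam* RNAi-labelled ones, and the groups overlapped. That ratio carries the trend with gene length: the length deciles of *mei-P26* and *tut* had median log2 fold changes of 0.43 and −0.30. With the trend removed *mei-P26* was at 0.43 and *tut* at 1.02, so the overlap does not show a constant ratio.

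**Figure D3:**
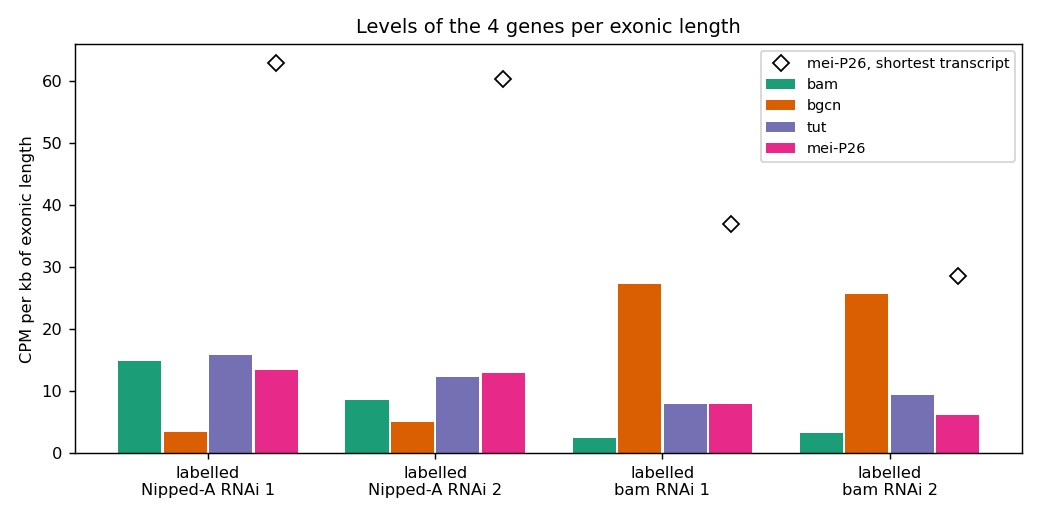
CPM per kilobase of merged exonic length (vertical axis, from 0) of the 4 genes in each library (horizontal axis), with open diamonds for *mei-P26* per kilobase of its shortest transcript. The *bgcn* bar is the shortest of the 4 in both *Nipped-A* RNAi-labelled libraries and the tallest in both *bam* RNAi-labelled ones.

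The 4 genes were next set against germ cell markers, since in a whole ovary fewer germ cells and less RNA per germ cell cannot be told apart. The 9 markers found, among them *aub*, *AGO3*, *spn-E* and *tud*, summed to 1860 and 1822 CPM in *Nipped-A* RNAi-labelled libraries, against 1742 and 1641 in *bam* RNAi-labelled ones. The most abundant marker, *tud*, weighed heavily in that sum: the other 8 summed to 1192 and 991 CPM in *Nipped-A* RNAi-labelled libraries, against 1332 and 1265 CPM in *bam* RNAi-labelled ones. Of the 9 log2 fold changes 6 were negative, with a median of −0.34. The germ plasm gene *tud* rose (log2 fold change 0.93, edgeR adjusted p = 0.0218). Once the length trend was removed *tud* was at 0.55 and not called (edgeR adjusted p = 0.0512). The piRNA gene *qin* fell (−1.04, edgeR adjusted p = 0.0305), and 7 were not called. Over all genes tested 19.6% were called. For each 1000 counts of these markers *bam* had 15.6 and 9.26 counts in *Nipped-A* RNAi-labelled libraries, against 2.70 and 3.97 in *bam* RNAi-labelled ones. *bgcn* had 7.63 and 11.4 counts on that scale in *Nipped-A* RNAi-labelled libraries, against 65.1 and 64.8 in *bam* RNAi-labelled ones. *mei-P26* had 167 and 164 in *Nipped-A* RNAi-labelled libraries, against 105 and 86.6 in *bam* RNAi-labelled ones. With libraries scaled to these markers the log2 fold changes were 1.90 for *bam*, −2.78 for *bgcn* and 0.79 for *mei-P26*, all called (edgeR adjusted p = 0.0271, 0.00711 and 0.0228), and 0.57 for *tut* (edgeR adjusted p = 0.221). Set against the median of the markers instead of their sum, the log2 fold changes of the 4 genes would move up, not down, from those with TMM.

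Bam partners, together with translational regulators that need not act with Bam, formed the first wider list, of 14 genes found. It is called the Bam partner list, or Bam partners, for short below. Of these 7 rose and 0 fell in *Nipped-A* RNAi-labelled libraries by edgeR (19.6% of all genes tested were called), with 8 and 2 at an unadjusted p under 0.05 (38.3% of all genes tested), 8 and 1 in DESeq2 (34.4%) and 6 and 0 in limma-voom (16.7%). The median log2 fold change was 0.65, beside −0.001 over all genes tested. Upper-quartile scaling left 5 higher and 2 lower, scaling to germ cell markers 5 and 1, and without the length trend 3 rose and 0 fell. Without that trend 769 genes rose and 618 fell in the whole table, of 10032 tested. As for the whole table, 0 genes of any list were called by edgeR without *bam* RNAi library 1 or 2. *otu*, the deubiquitinase that joins Bam to stabilise cyclin A, had 462 and 316 CPM in *Nipped-A* RNAi-labelled libraries, against 98.9 and 95.3 CPM in *bam* RNAi-labelled ones (log2 fold change 2.00 ± 0.21, edgeR adjusted p = 0.0110). *CycA*, the cyclin it protects, had 878 and 531 CPM in *Nipped-A* RNAi-labelled libraries, against 223 and 232 CPM in *bam* RNAi-labelled ones (1.63 ± 0.26, edgeR adjusted p = 0.0185). *otu* and *CycA*, like *bam*, were higher in library 1 than in library 2 of *Nipped-A* RNAi-labelled ones. That was not particular to them, since *nanos*, *bru1*, *orb* and the germ cell marker *zpg* ran the same way. *AGO1*, *shot* and *tud* ran the other way. The translational repressor *brat* rose by 1.35 ± 0.23 and *Not1*, the scaffold of the CCR4-NOT deadenylase, by 0.78 ± 0.12. With the length trend removed *brat* was at 0.93 and *Not1* at 0.36, neither called (edgeR adjusted p = 0.0816 and 0.129), and with length taken from the shortest transcript the call of *Not1* was lost and that of *brat* was not. *nanos*, *AGO1* and *pum* made up the 7. Calls of *AGO1* and *pum* ended under upper-quartile scaling (0.54 and 0.44, edgeR adjusted p = 0.0823 and 0.0772). They also ended with germ cell marker scaling (0.63 and 0.53, edgeR adjusted p = 0.0514 and 0.056). With the length trend removed they were at 0.38 and 0.23 and not called (edgeR adjusted p = 0.119 and 0.413).

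*nanos*, the stem cell factor whose translation the Bam complex represses, had 311 and 163 CPM in *Nipped-A* RNAi-labelled libraries, against 97.8 and 83.7 CPM in *bam* RNAi-labelled ones (log2 fold change 1.38 ± 0.32, edgeR adjusted p = 0.0403). Its call ended under limma-voom (1.32, adjusted p = 0.0531), robust moderation in edgeR (1.38, adjusted p = 0.0527) and the length trend by shortest transcript (1.32, edgeR adjusted p = 0.0527), with a log2 fold change near the one above in each. *Sxl*, which binds the *nanos* transcript together with Bam and Bgcn, had 381 and 417 CPM in *Nipped-A* RNAi-labelled libraries, against 435 and 386 CPM in *bam* RNAi-labelled ones, and the groups overlapped (−0.04 ± 0.14, edgeR adjusted p = 0.845). The deadenylase gene *twin* had 261 and 185 CPM in *Nipped-A* RNAi-labelled libraries, against 144 and 141 CPM in *bam* RNAi-labelled ones, and was not called (0.65 ± 0.19, edgeR adjusted p = 0.0720). *CSN5* (−0.61 ± 0.17) and *CSN4* (−0.42 ± 0.14) of the COP9 signalosome, whose CSN4 subunit binds Bam, had negative values and were not called (edgeR adjusted p = 0.0654 and 0.0886).

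**Figure D4:**
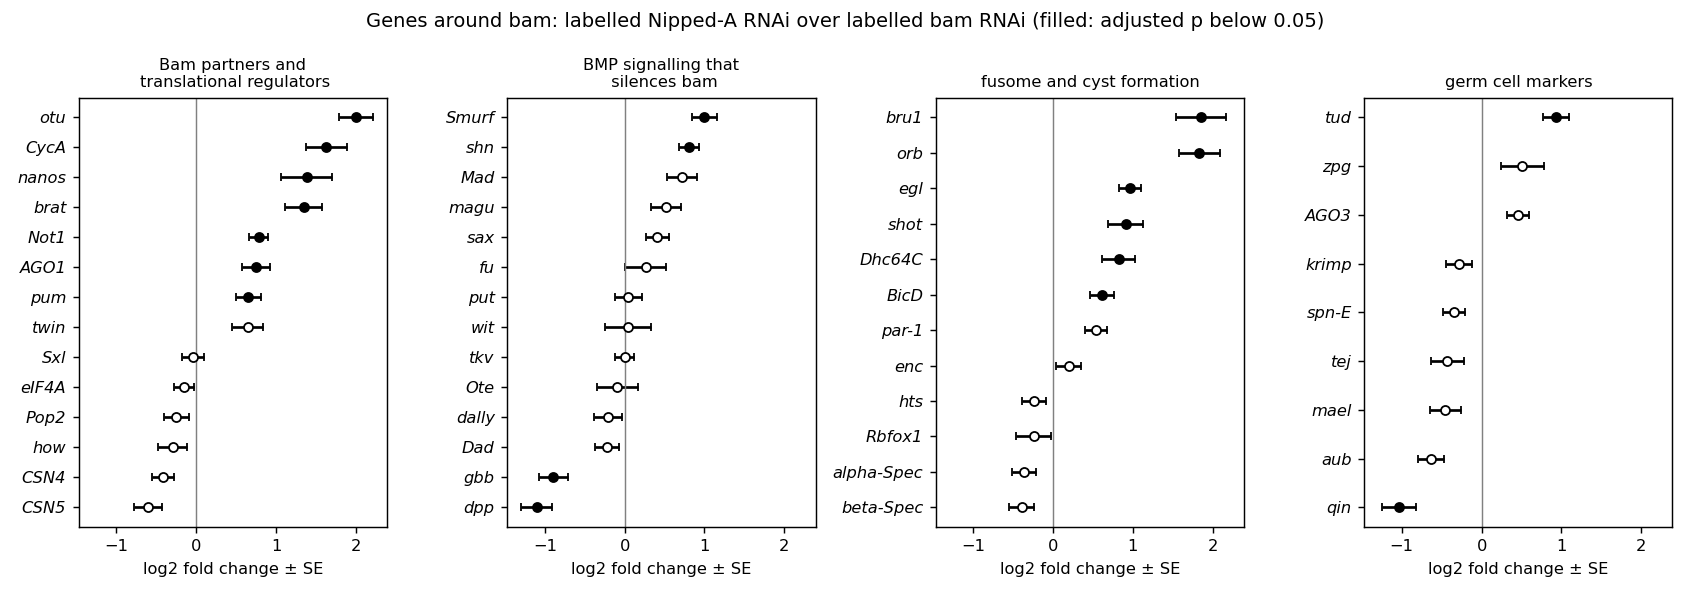
Log2 fold change ± SE (horizontal axes) of *Nipped-A* RNAi-labelled libraries over *bam* RNAi-labelled ones for the genes of 4 lists. These run from Bam partners and translational regulators to germ cell markers. Filled points are called and the vertical line marks no difference. Calls in the partner and the fusome lists are all above 0, with *otu*, *bru1* and *orb* farthest out, while the BMP and germ cell lists hold calls on both sides.

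The BMP pathway silences *bam* in the stem cell. Of 14 genes found 2 rose and 2 fell by edgeR, beside 11.3% higher and 8.31% lower over all genes tested, with 5 and 2 at an unadjusted p under 0.05 (38.3%), 5 and 2 in DESeq2 (34.4%) and 2 and 2 in limma-voom (16.7%). The median log2 fold change was 0.04. Both ligand genes fell: *dpp* had 27.7 and 35.0 CPM in *Nipped-A* RNAi-labelled libraries, against 67.4 and 66.7 CPM in *bam* RNAi-labelled ones (−1.10 ± 0.19, edgeR adjusted p = 0.0229). *gbb* had 53.9 and 71.3 CPM in *Nipped-A* RNAi-labelled libraries, against 114 and 119 CPM in *bam* RNAi-labelled ones (−0.89 ± 0.18, edgeR adjusted p = 0.0306), and with the length trend removed it was at −0.74 and not called (edgeR adjusted p = 0.0638), or −0.80 by shortest transcript (edgeR adjusted p = 0.0538). The receptor gene *tkv* had 148 CPM in every library. The genes that rose were *Smurf*, a ubiquitin ligase that dampens the pathway in the cystoblast, by 1.00 ± 0.16 (edgeR adjusted p = 0.0182) and *shn*, a cofactor of silencing by Mad, by 0.81 ± 0.13 (edgeR adjusted p = 0.0185). The call of *shn* ended with the length trend removed (0.39, edgeR adjusted p = 0.0979). *dpp* is made mainly by the somatic niche, whose cap and escort cell markers, 6 of 7 tested, had a median log2 fold change of −0.38 with 0 called by edgeR or DESeq2 and 0 at an unadjusted edgeR p below 0.05. The part of that cell type in the value of *dpp* was not tested.

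Genes of the fusome, the branched organelle of the dividing cyst, and of later cyst formation made up the last list. Of 12 genes 6 rose and 0 fell by edgeR (19.6% of all genes tested were called), with 7 and 1 at an unadjusted p under 0.05 (38.3%), 7 and 0 in DESeq2 (34.4%) and 3 and 0 in limma-voom (16.7%). The median log2 fold change was 0.58. Without the length trend 3 rose and 3 fell, beside 769 and 618 of 10032 genes in the whole table. Under upper-quartile scaling 3 rose and 1 fell. *bru1*, a translational repressor of the growing cyst, had 880 and 496 CPM in *Nipped-A* RNAi-labelled libraries, against 218 and 165 CPM in *bam* RNAi-labelled ones (1.85 ± 0.31, edgeR adjusted p = 0.0215). *orb*, an oocyte-enriched translational regulator, had 327 and 207 CPM in *Nipped-A* RNAi-labelled libraries, against 82.7 and 67.5 CPM in *bam* RNAi-labelled ones (1.83 ± 0.26, edgeR adjusted p = 0.0159). *egl*, which links RNA cargo to dynein, rose by 0.96 ± 0.14 (edgeR adjusted p = 0.0159), and *shot*, *BicD* and *Dhc64C* completed the 6. Calls of *shot*, *BicD* and *Dhc64C* ended under limma-voom at log2 fold changes of 0.89, 0.62 and 0.81, under upper-quartile scaling at 0.70, 0.40 and 0.61, and with the length trend removed at 0.38, 0.33 and 0.39. The structural fusome genes *hts* (−0.24 ± 0.15), *alpha-Spec* (−0.36 ± 0.15) and *beta-Spec* (−0.40 ± 0.15) had negative values and were not called (edgeR adjusted p = 0.301, 0.138 and 0.126). *Rbfox1*, which promotes cyst differentiation downstream of Bam, had 79.4 and 92.8 CPM in *Nipped-A* RNAi-labelled libraries, against 120 and 83.4 CPM in *bam* RNAi-labelled ones, and the groups overlapped.

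Markers of several other cell types, though not of all, differed between the same libraries. Over all genes tested edgeR called 19.6%, with 11.3% higher and 8.31% lower, DESeq2 called 34.4% and limma-voom 16.7%. An unadjusted edgeR p below 0.05 was found for 38.3%. All 5 muscle sheath markers, among them *Act57B*, fell and summed to 5190.3 and 5846 CPM in *Nipped-A* RNAi-labelled libraries, against 19983 and 20014 in *bam* RNAi-labelled ones. Of 5 genes listed as hemocyte markers, among them *Col4a1* and *Pxn*, 4 fell, with a median log2 fold change of −1.66. They summed to 3134 and 3246 in *Nipped-A* RNAi-labelled libraries, against 8265 and 7281 CPM in *bam* RNAi-labelled ones. The 1 not called was *Hml* (−0.54, edgeR adjusted p = 0.0718). Whether these genes report hemocytes alone in a whole ovary was not tested. All 5 gut markers, among them *Jon65Aiv*, rose (2 under limma-voom), with sums of 837 and 2400.2 in *Nipped-A* RNAi-labelled libraries, against 3.29 and 3.67 CPM in *bam* RNAi-labelled ones, and *betaTry* was at 0 in *bam* RNAi library 2. Of 6 follicle cell markers, among them *Fas3*, 1 rose and 2 fell, with sums of 777 and 1005 in *Nipped-A* RNAi-labelled libraries, against 1057 and 948 CPM in *bam* RNAi-labelled ones. Of 6 cap and escort cell markers, among them *fax*, 0 were called by edgeR, DESeq2 or limma-voom and 0 had an unadjusted edgeR p below 0.05, with sums of 1052 and 1581 in *Nipped-A* RNAi-labelled libraries, against 1507 and 1294 CPM in *bam* RNAi-labelled ones. Of 5 fat body markers 1 rose and 3 fell, with a median log2 fold change of −5.30. Their sums of 1666 and 1464 in *Nipped-A* RNAi-labelled libraries, against 853 and 784 CPM in *bam* RNAi-labelled ones, were mostly *apolpp*, the one that rose, at 1248 and 1317 CPM in *Nipped-A* RNAi-labelled libraries, against 493 and 419 CPM in *bam* RNAi-labelled ones. *Fbp1* had 0.753 and 0 CPM in *Nipped-A* RNAi-labelled libraries, against 59.9 and 73.6 CPM in *bam* RNAi-labelled ones, and *Fbp2* and *Lsp1alpha*, which fell too, were also at 0 in *Nipped-A* RNAi library 2. The part of these cells in the values of *bam*, *bgcn*, *tut* and *mei-P26* was not tested.

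The genes whose level ran most like each of the 4 over the 4 libraries were found by the Euclidean distance of centred log2 CPM, among 7847 named genes that averaged 4 CPM or more. With 4 libraries in 2 groups, closeness mainly means a like fold change and a like spread within the groups. Closest to *bam* were *CG9265* (distance 0.130), the cytochrome P450 gene *Cyp6a22* (0.147) and *CG9503* (0.203). *CG9265* had 39.2 and 22.4 CPM in *Nipped-A* RNAi-labelled libraries, against 6.87 and 9.63 CPM in *bam* RNAi-labelled ones, and so shared with *bam* the higher value in library 1 of the first group and in library 2 of the other. Closest to *bgcn* were *SmydA-9* (0.137), *Cyp318a1* (0.174) and *Nepl19* (0.186). *SmydA-9* had 12.5 and 18.1 CPM in *Nipped-A* RNAi-labelled libraries, against 106 and 105 CPM in *bam* RNAi-labelled ones. Closest to *tut* were *pcs* (0.0525), *CG10222* (0.0549) and *CG5805* (0.0772), and closest to *mei-P26* were *Mpp6* (0.0397), *mdy* (0.0471) and *Rgl* (0.0540). Among the 4 themselves *tut* and *mei-P26* were the nearest pair, at 0.522, and *bam* and *bgcn* the farthest apart, at 4.77. Distances grow with the size of the fold change, so those of different genes are not on one footing.

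**Figure D5:**
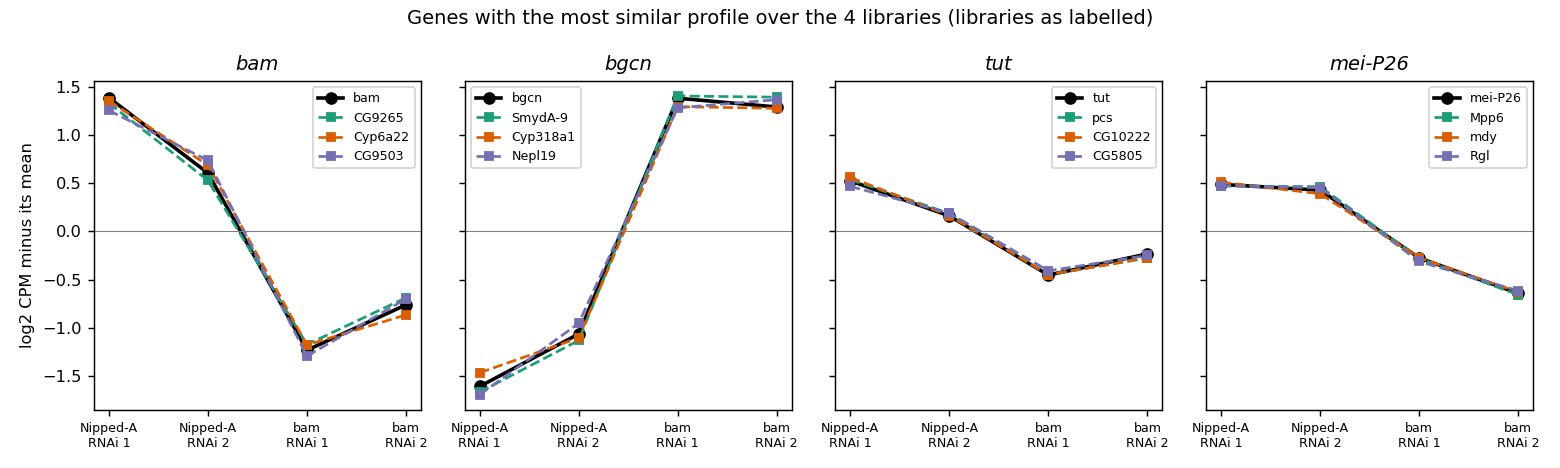
Log2 CPM minus its mean over the 4 libraries (vertical axis) for each of the 4 genes (black) and the 3 genes closest to it (dashed), by library as labelled (horizontal axis); the lines only join points of a gene, since replicates have no order. Profiles of *bam* and its closest genes slope between the *Nipped-A* RNAi libraries, whereas those of *mei-P26* are level there.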

How the data were processed

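Counts per gene were deposited by the authors as 1 table per library, with no normalization. Per the submitters' processing notes, the build was dm6 and the tools were HISAT2 2.1.0, featureCounts 1.6.0.4 and edgeR 3.16.5. Which annotation and strand setting were used, and how reads with several matches were treated, is not given in the sources used here. Per the labels' protocols, a directional kit was used after poly(A) selection. Symbols, positions and exonic lengths came from Ensembl gene models on dm6 coordinates, which hold 16647 of the 17023 identifiers. Library totals ranged from 21193517 to 47825006 counts.

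Here genes were filtered with filterByExpr, scaled with TMM and tested with edgeR 4.0.16 (glmQLFit and glmQLFTest, two-sided, R 4.3.3), adjusted by Benjamini-Hochberg over the 10245 genes tested, at a threshold of 0.05. All 4 libraries entered 1 fit with the group alone. Standard errors were derived from the F statistic (size of the log2 fold change over √F). Distances used a prior count of 2. The steps were run on simulated counts with known fold changes, to check that the median fitted fold came out near the one set. Those counts held no length trend, so that run does not cover it. Alternatives were RLE, upper-quartile, library-size and germ-marker scaling, other filters, DESeq2 1.42.0, limma-voom (limma 3.58.1), robust moderation, the replicate number as a block, removal of the length trend and each library left out. The length trend by shortest transcript was added after seeing the data.

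The 4 genes, the lists and the tests were chosen with earlier results of these data known. Named genes are the 4 genes, *Nipped-A*, up to 4 called genes with the smallest adjusted p of each pathway or germ cell list, the most abundant gene of each other marker list, and the 3 closest profiles of each of the 4. Other genes named were chosen after their values were seen. *vas*, *TER94*, *Med*, *br* and *wupA* were listed but found no match by symbol. The marker *en* had too few counts to be tested.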

Additional observations from a re-analysis of the deposited data

How the results depend on the processing

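*bam*, *bgcn*, *tut* and *mei-P26* kept their direction under every alternative run. With each library left out in turn, the log2 fold change ran from 1.58 to 2.44 for *bam*, −2.89 to −2.42 for *bgcn*, 0.49 to 0.93 for *tut* and 0.74 to 1.12 for *mei-P26*. Over the same fits the count of genes called ran from 0 to 4215, and the called genes numbered 0 to 11 for Bam partners, 0 to 8 for BMP signalling, 0 to 9 for fusome and cyst formation and 0 to 8 for germ cell markers. The lone library of a group is assumed there to vary like the other group. With the length trend removed *mei-P26* was at 0.43 and not called (0.56 by shortest transcript). Of the Bam partner list 3 genes and of the BMP list 2 were then called, against 7 and 4 (also 3 and 2 by shortest transcript). The whole table had fewer calls too, with 1387 of 10032 genes called (1404 by shortest transcript), against 2004 of 10245. DESeq2 called 3521 genes, 7 BMP genes and 4 germ cell markers, against 2004, 4 and 2 in edgeR. Of the fusome and cyst genes 3 were called with germ cell marker scaling and 3 with limma-voom, against 6, and of the germ cell markers 4 under upper-quartile scaling, against 2. The cause of these shifts was not tested. With the replicate number as a block 1813 genes were called and *bam*, *bgcn* and *mei-P26* kept their calls (log2 fold changes 2.00, −2.68 and 0.92), while *tut* stayed uncalled at 0.69. Deviations of same-numbered libraries correlated at −0.08 over genes. That value cannot decide whether the numbers pair the samples, since differences particular to a library can hide a shared one. *tut* and *Nipped-A* both had a log2 fold change of 0.70, with an SE of 0.29 for *tut*, which was not called, and of 0.14 for *Nipped-A*, which was.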

Other observations

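Apart from *aly*, the listed transcripts of the male germ line, in which *bam*, *bgcn* and *tut* also act, were scarce in all libraries. Of 5 testis genes only *aly*, a regulator of meiotic genes in the testis, had enough counts to be tested. It had 76 and 45 counts in *Nipped-A* RNAi-labelled libraries and 295 and 134 in *bam* RNAi-labelled ones, and fell (log2 fold change −2.0 ± 0.47 SE, edgeR adjusted p = 0.0404). With the length trend removed and with the replicate block it was not called, at log2 fold changes of −1.97 and −1.98 (edgeR adjusted p = 0.0525 and 0.0631), close to the value above. The other 4, *can*, *Mst87F*, *dj* and *sa*, had at most 12 counts in any library.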
